A study of Mus musculus with 38 samples.

Results

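The complement genes followed here were the 9 genes C1qa, C1qb, C1qc, C4b, C2, Cfb, C3, C3ar1 and C5ar1, chosen by name from the genes of the array. They carried 12 of the 40628 probes and were 9 of the 29411 gene names on the array. C2, C3 and C3ar1 had 2 probes each, and unless the second probe is named, a value belongs to the probe of higher mean level. Their transcripts were read on 38 Agilent arrays of 1 colour. The RNA came from stromal vascular cells of epididymal fat of C57BL/6J mice, the cells left when adipocytes are removed, which the labels call infiltrating macrophages. All mice had been weaned at the age of 3 to 4 weeks, and the labels give 30 animals per diet group, of which 5 were killed per interval, without saying whether RNA was pooled. Mice of the LFC group were fed a low fat diet with 10% of calories from fat (10 arrays), and mice of the HFC group a high fat, sucrose-enriched diet with 60% of calories from fat (10 arrays). The HF5, HF20 and HF75 groups received the same high fat diet with 5, 20 or 75 µg of KAL-1, an aqueous botanical formulation (6 arrays each). LFC and HFC were sampled at days 6, 10 and 14 (D6, D10, D14) and at weeks 0, 3, 6, 9, 12, 15 and 18 (W0 to W18), and the KAL-1 groups from W3 on. Each diet had 1 array per time point, so an array is named by its diet and time point, and the tests take the spread between time points as the error.

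Complement is a set of plasma and tissue proteins that cut one another in a cascade. In the classical pathway C1q, a hexamer-forming protein built from C1qa, C1qb and C1qc chains, binds a target, and its proteases then cut C4 (C4b here) and C2 into a C3 convertase. In the alternative pathway factor B (Cfb) takes the place of C2. Both convertases cut C3, whose small fragment acts through the receptor C3ar1, while C5ar1 is the receptor for the fragment of C5. Tissue macrophages are a main source of C1q, and in fat tissue stromal and fat cells also make C3, C4 and factor B.

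The values rest on single 60-base probes, which are shown because a signal is only as specific as its probe. Probes of the first 2 C1q chains, of both convertase proteases, of C4b and the second C3 probe read as follows in the array design.
C1qa: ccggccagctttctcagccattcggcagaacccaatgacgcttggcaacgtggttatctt
C1qb: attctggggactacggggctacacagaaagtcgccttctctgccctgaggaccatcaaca
C4b: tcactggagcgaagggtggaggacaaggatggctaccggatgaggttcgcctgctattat
C2, second probe: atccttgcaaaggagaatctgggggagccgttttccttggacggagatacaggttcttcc
Cfb: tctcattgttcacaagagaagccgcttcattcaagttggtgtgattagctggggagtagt
C3, second probe: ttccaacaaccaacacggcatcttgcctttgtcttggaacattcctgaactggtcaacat
The longest run of bases shared by any 2 of the 12 probes, over their 66 pairs, was 4 to 8 bases, for C2 and Cfb and for the C1q chains as well. The design lists transcripts of both C4b and its near-identical paralogue C4a for the C4b probe, so the C4b signal cannot be assigned to C4b alone. In the RefSeq gene order C1qb, C1qc and C1qa lie side by side on chromosome 4 with 0 genes between neighbours. On chromosome 17, Cfb and C2 have 1 gene between them, and C4b and Cfb have 11. The 250 bases before the RefSeq start were held for C1qb, C1qc, C3, C3ar1 and C5ar1, and they are shown for the C1q pair, whose levels followed each other most closely among the genes that have them. They were searched for GAGGAA, the core that the macrophage factor PU.1 binds, on both strands, and matches are in capitals.
C1qb, chr4:136886201-136886450, minus strand, GRCm38.p6: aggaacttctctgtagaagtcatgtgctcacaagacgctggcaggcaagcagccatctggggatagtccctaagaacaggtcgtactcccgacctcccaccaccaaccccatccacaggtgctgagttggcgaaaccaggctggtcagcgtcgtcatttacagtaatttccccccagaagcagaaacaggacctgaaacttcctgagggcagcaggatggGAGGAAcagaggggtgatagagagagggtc
C1qc, chr4:136892915-136893164, minus strand, GRCm38.p6: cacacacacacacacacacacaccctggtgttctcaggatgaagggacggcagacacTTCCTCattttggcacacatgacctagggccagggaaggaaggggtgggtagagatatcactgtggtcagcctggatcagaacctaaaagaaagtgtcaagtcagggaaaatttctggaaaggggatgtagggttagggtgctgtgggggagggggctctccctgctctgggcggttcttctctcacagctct
C1qb had 1 match, 30 bases before the start, and C1qc had 1 match on the reverse strand, 193 bases before the start. The windows of C3, C3ar1 and C5ar1 had 0, and 23.3% of 32851 windows of the same length held the motif, so a match in a window is a common event and only a description.

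A level below is log2 of the processed signal minus the log2 75th percentile of its array, so that a probe at that percentile has level 0. Levels of different probes are not comparable. Each of the 10 macrophage markers (among them Adgre1, Cd68, Csf1r and Lyz2) was well above background on at least 35 of the 38 arrays, but so were all 8 fibroblast markers on 38 arrays and adipocyte markers such as Adipoq and Plin1 on 38. The preparations were thus not macrophages alone, and fewer cells of a type and less RNA per cell cannot be told apart in them. The macrophage score, the mean level of the 10 markers, ran from 0.64 through a median of 1.36 to 2.53 in LFC and from 0.57 through 2.20 to 3.38 in HFC, and was lowest of all on HF20 W12 at -0.12. HF20 W12 also had the lowest fibroblast and adipocyte scores of all arrays, at 2.04 and -0.88. Several arrays stood apart. LFC D6 and D10 had Tcf21, a transcription factor of visceral fat, not well above background and were dimmer than their HFC partners (75th percentile signal 228.9 against 675.3 scanner units at D6 and 261.6 against 935.7 at D10). The same 2 arrays carried brown fat transcripts, with Ucp1, the uncoupling protein of brown fat, at 3.83 and 5.11 against a median of -4.62 over all arrays, and so did HF5 W12 at 6.93. Whether these 3 preparations are epididymal stromal cells was not settled. At W6 the score of epididymal fat identity (Tcf21, Wt1 and Hoxc8) was -5.61 in HFC, -6.39 in HF5, -6.90 in HF20, -5.11 in HF75 and -3.73 in LFC. Its medians were -1.75 in LFC and -1.15 in HFC. The B cell scores of the W6 arrays lay between -1.07 (HF20) and 0.49 (HF5), against medians of -3.74 in LFC and -4.01 in HFC. The origin of the W6 preparations was not settled either. Both W9 control arrays (LFC and HFC) and, at W12, those of HF75 and LFC were rich in adipocyte transcripts (adipocyte score 4.77 to 5.07, against medians of 2.32 in LFC and 1.53 in HFC). LFC W18 was dimmer as well, at 229.8 against 493.4, and the dimmest arrays were HF5 W12 at 25.8 and HF75 W3 at 88.4. For some of the estimates that moved, the value without these arrays is given as well.

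**Figure D1:**
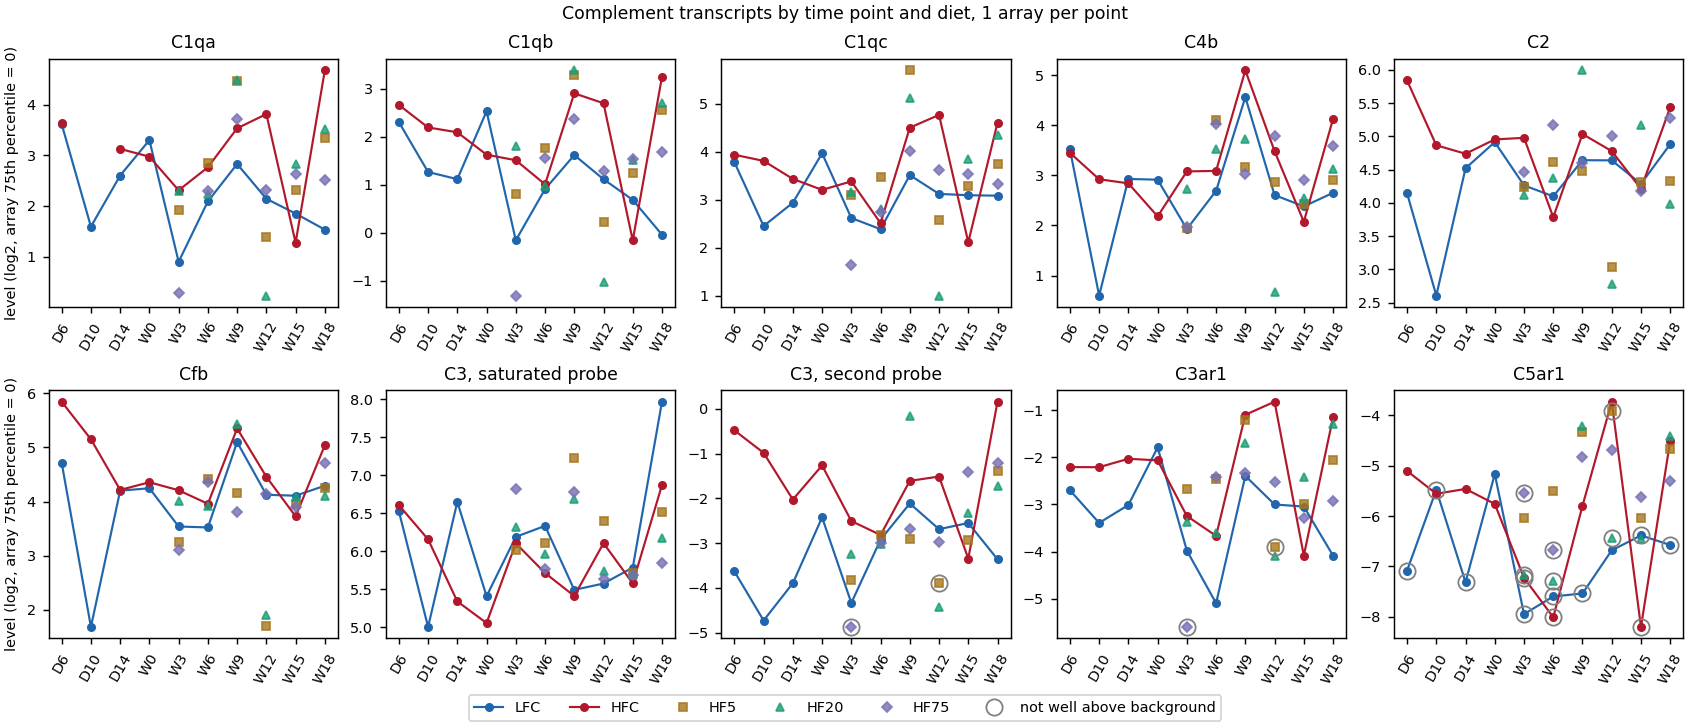
Level (log2 signal relative to the array's 75th percentile) of the complement genes on each array by time point, 1 array per point. LFC and HFC are joined by lines, and the KAL-1 groups are single markers. C1qa lay between 0.90 and 3.62 under LFC and between 1.27 and 4.68 under HFC, and HFC was below LFC for all 9 genes at W15.

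The first comparison asked how a high fat diet altered complement transcripts against the low fat diet of the same time point. The estimate of HFC minus LFC over the 10 time points was positive for 8 of the 9 genes, while 50.7% of all 31208 probes tested had a positive estimate. The exception was C3 by a probe that was saturated on most arrays, described below. Of the 8, C5ar1 was well above background on 7 of 10 HFC but only 2 of 10 LFC arrays. In this and the later counts of HFC minus LFC it was tested through high fat arrays and not through its LFC arrays. The filter thus favoured a positive sign for C5ar1, which adds little to these counts. None of the 9 genes passed limma's adjusted threshold of 0.05, nor did any other probe (0.0% of probes, smallest adjusted p = 0.547). At an unadjusted p below 0.05 there were 4 of the 9 genes (C1qa, C1qb, C2 and C3ar1) against 9.05% of all probes. The median estimate was 0.68 log2 over the 9 genes and 0.01 over all probes. So the differences below are estimates whose direction was shared by most members, without a call for any of them.

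The C1q chains, the recognition part of the classical pathway, were measured well above background on all arrays. C1qa had levels of 0.90 (W3) to 3.62 (D6) with a median of 2.12 in LFC, and of 1.27 (W15) to 4.68 (W18) with a median of 3.13 in HFC. The HFC D10 spot of C1qa was marked as an outlier by the scanner software and left out, which left 9 pairs. The ranges overlapped widely, yet HFC was above LFC in 7 of the 9 pairs, by 3.15 at W18 and 1.67 at W12, and below it at W0 (-0.33) and W15 (-0.58). The mean level was 2.24 ± 0.84 (SD, n = 10) in LFC and 3.12 ± 0.97 (SD, n = 9) in HFC, and the limma estimate was 0.81 (SE 0.35, adjusted p = 0.547). Without W18, whose LFC array was dim, it was 0.51.
C1qb spanned -0.15 to 2.53 with a median of 1.12 in LFC and -0.16 to 3.25 with a median of 2.15 in HFC. Its estimate was 0.84 (SE 0.37), with HFC higher at 8 of 10 time points. C1qc spanned 2.38 to 3.96 with a median of 3.09 in LFC and 2.11 to 4.76 with a median of 3.62 in HFC. Its estimate was the smallest of the chains at 0.53 (SE 0.27, adjusted p = 0.549), again with 8 of 10 time points higher in HFC. All 3 chains were lower in HFC at W0 and W15 and higher at every other time point measured.

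Of the convertase genes, C4b supplies the surface-bound part and C2 and Cfb the protease. C4b ran from 0.60 (D10) through a median of 2.67 to 4.56 (W9) in LFC and from 2.07 (W15) through 3.08 to 5.10 (W9) in HFC, and was higher in HFC at 6 of 10 time points (estimate 0.56, SE 0.28, adjusted p = 0.548, and 0.36 without D10). C2 had its lowest LFC level, 2.61, on the dim LFC D10 array, with a median of 4.40 and a highest level of 4.91. In HFC it ran from 3.78 (W6) through 4.91 to 5.84 (D6). The 2 probes of C2 gave estimates of 0.56 (SE 0.25) and 0.76 (SE 0.26) and were correlated at r = 0.91 over the 38 arrays. Cfb, from 1.68 (D10) through 4.16 to 5.10 in LFC and from 3.72 through 4.41 to 5.84 in HFC, was higher in HFC at 9 of 10 time points, with an estimate of 0.68 (SE 0.32, adjusted p = 0.547). The first C2 probe and Cfb were saturated on 1 HFC array each, where their level is a lower bound. For both proteases the size rested on D10 and D6. The Cfb difference was 3.47 at D10 and 1.13 at D6, and the C2 difference 2.26 and 1.70. At the other time points it stayed between -0.38 and 0.75 for Cfb and between -0.31 and 0.72 for C2. With D6 and D10 left out the estimates fell to 0.27 for Cfb and 0.21 for C2.

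C3, the protein on which the pathways converge, was read by 2 probes that went separate ways. The brighter one was saturated on 31 of the 38 arrays, among them all 10 of HFC. Its level fell as array brightness rose (Spearman's rho = -0.837, r = -0.546 over 38 arrays), since a clipped signal is divided by a larger percentile. Its estimate of -0.20 (SE 0.23) is then no measure of a difference and no fold is drawn from it. The second C3 probe was never saturated and was well above background on 36 arrays. It ran from -4.73 (D10) through a median of -3.14 to -2.11 (W9) in LFC, and from -3.34 (W15) through -1.56 to 0.16 (W18) in HFC. HFC was higher at 9 of 10 time points, by 3.74 at D10, 3.52 at W18 and 3.15 at D6, and lower only at W15 by -0.80. The estimate of 1.62 (SE 0.43, adjusted p = 0.547, unadjusted p = 0.0029) had a size above that of 99.2% of the probes tested. At each of these 3 time points the LFC array was much dimmer than the HFC array, as it was at D14 (672.2 against 1718 scanner units), where the gap was 1.87. Without D6 and D10 the estimate was 1.17, and over each single time point left out it stayed between 1.39 and 1.89. The 2 probes of C3 were uncorrelated over the arrays (r = 0.005).

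**Figure D2:**
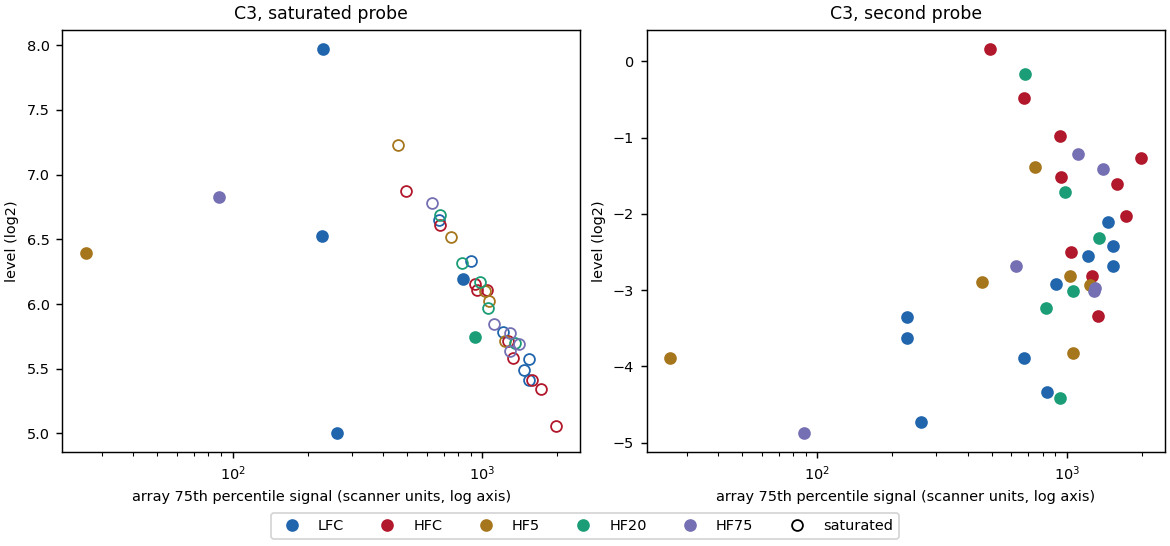
Levels (log2 signal relative to the array's 75th percentile) of the saturated C3 probe and of the second C3 probe on each array. The horizontal axis is the array's 75th percentile signal in scanner units, on a log axis. The saturated probe falls with brightness (rho = -0.837), while the second probe does not fall with it (rho = 0.34).

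Of the receptors, C3ar1, the one for the small C3 fragment, ran from -5.09 (W6) through -3.03 to -1.79 (W0) in LFC and from -4.08 (W15) through -2.14 to -0.82 (W12) in HFC. It was higher in HFC at 8 of 10 time points, and its 2 probes gave estimates of 0.99 (SE 0.33) and 0.83 (SE 0.33) with an adjusted p of 0.547 each. C5ar1 was well above background on 2 of 10 LFC and 7 of 10 HFC arrays, so that much of its LFC range, from -7.95 through -6.88 to -5.17, lies near background. In HFC it ran from -8.20 (W15) through -5.66 to -3.73 (W12), and the estimate was 0.84 (SE 0.44, adjusted p = 0.55), with 6 of 10 time points higher in HFC.

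Counted over the 9 genes, the saturated C3 probe included, the time points differed. Each count rests on 1 pair of arrays and on genes whose levels were correlated, and no share of all probes was taken for these pairs. At W12 all 9 genes were higher in HFC, with a median difference of 1.58, and at W18 8 of 9 were, with a median of 1.52. At W15 all 9 were lower in HFC, with a median of -0.58, and at W0 only 2 of 9 were higher (median -0.35). D14 and W0 fall on the same elapsed day, and yet 7 of 9 genes were higher in HFC at D14. The macrophage score moved in the same way, with HFC minus LFC lowest at W15 (-1.06), highest at W12 (2.18) and 0.55 ± 0.95 (SD, n = 10) on average. At W12 other scores differed too. The adipocyte score was 4.77 in LFC and 1.59 in HFC, the T cell score -3.67 and -1.19, and the B cell score -5.04 and -1.94. The part of these cell types in the W12 differences was not tested.

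**Figure D3:**
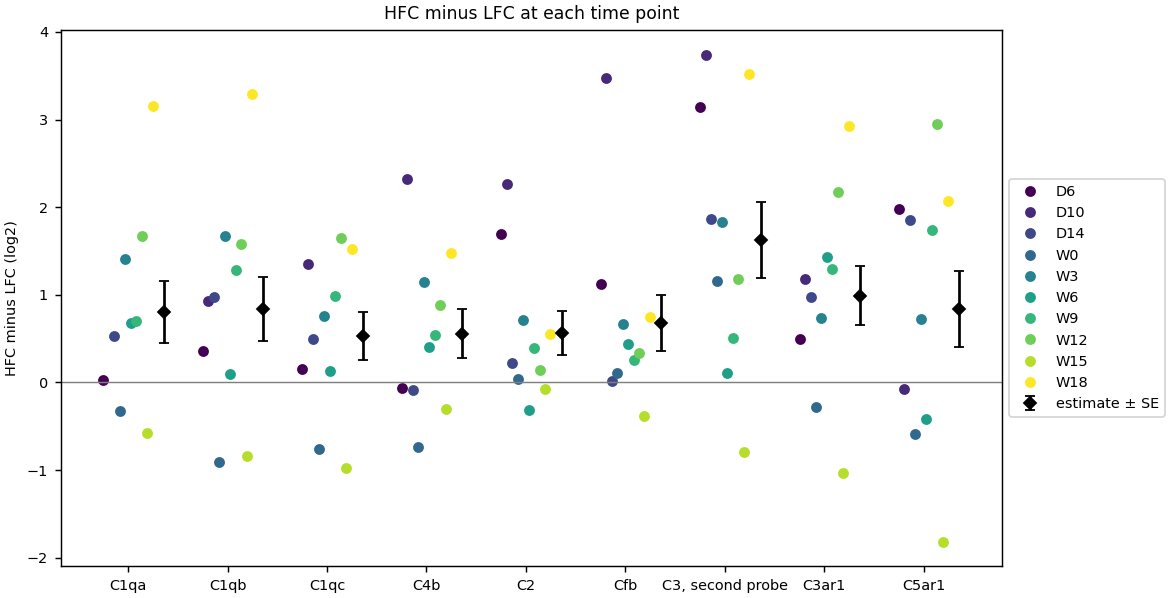
HFC minus LFC (log2) of each gene at each time point (coloured points, 1 pair of arrays each) and the limma estimate with its standard error (black diamond and bar). All estimates shown are above 0, from 0.53 for C1qc to 1.62 for the second C3 probe, and the W15 points are below 0.

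The genes parted when the fit was given the macrophage score of each array as a covariate, or in its place the array's brightness. With the macrophage score the estimate went from 0.81 to 0.27 for C1qa, from 0.84 to 0.22 for C1qb, from 0.53 to 0.06 for C1qc, from 0.99 to 0.43 for C3ar1 and from 0.84 to 0.05 for C5ar1. It was 0.52 for C2 and 0.61 for Cfb, close to their values without it, 0.28 for C4b and 1.24 for the second C3 probe. With brightness the estimates were 0.82 for C1qa, 0.74 for C1qb, 0.48 for C1qc, 0.95 for C3ar1 and 0.85 for C5ar1, but 0.08 for C2, 0.11 for Cfb, 0.35 for C4b and 0.71 for the second C3 probe. So the estimates of the C1q chains and receptors moved more with the macrophage score than with brightness, those of C2 and Cfb more with brightness, and those of C4b and the second C3 probe fell with both. The part of either in the differences was not tested. No estimate passed the threshold under either covariate.

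In the first weeks (D6 to W0, 8 arrays) 8 of 9 estimates were positive, against 46.5% of probes, and 0 of the 9 were below an unadjusted p of 0.05, against 12.2%. C3 enters these counts by its saturated probe, and in the same limma fit its second probe was below that unadjusted level. Each C1q chain had an estimate below its SE then. C1qa was at 0.08 (SE 0.31), without its D10 pair, C1qb at 0.34 (SE 0.39) and C1qc at 0.31 (SE 0.39). C2 was at 1.05 (SE 0.46) and 1.22 (SE 0.45) by its 2 probes, Cfb at 1.18 (SE 0.65) and the second C3 probe at 2.48 (SE 0.49, adjusted p = 0.244). Without D10 Cfb was at 0.42 and C2 at 0.65. The preparations of these pairs differed in nearly every marker list. From LFC to HFC the mesothelial score went from -4.27 to 2.84 at D6 and from -5.08 to 1.86 at D10, and the epididymis score from -5.90 to 1.29 and from -6.12 to 3.60. The brown fat score went from 0.36 to -3.58 at D6 and from 1.72 to -4.53 at D10. At D10 the endothelial score went from 4.33 to 0.64 and the fibroblast score from 3.31 to 5.90. Their part in the D6 and D10 differences of the complement genes was not tested.
From W3 to W18, in a fit of all 5 diets, 8 of 9 estimates were positive, against 54.5% of probes, and C1qa, C1qb and C3ar1 were below an unadjusted p of 0.05, against 3.21%. C1qa was at 1.17 (SE 0.49), C1qb at 1.18 (SE 0.56) and C3ar1 at 1.25 (SE 0.55), each with an adjusted p of 0.9996. Without W18, whose LFC array was dim, they were at 0.78, 0.76 and 0.92. C2 (0.24, SE 0.37) and Cfb (0.34, SE 0.39) were smaller there. The change of HFC minus LFC with time, fitted per week, was 0.083 (SE 0.049) for C1qa and -0.059 (SE 0.046) for Cfb, and its smallest adjusted p among the 9 genes was 0.981. A positive change was estimated for 6 of 9 genes, against 53.1% of probes, so the earlier and later weeks were not shown to differ.
Within LFC the slope was positive for 4 of the 8 genes tested (49.2% of probes) and within HFC for 6 of 9 (53.8%). C5ar1 did not meet the background requirement within LFC. No slope of the 9 genes had an unadjusted p below 0.05.

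The next question was whether KAL-1 altered complement transcripts under the high fat diet. All dose comparisons share the 6 HFC arrays of W3 to W18, which also enter the comparison with LFC. Some KAL-1 arrays, among them all those of W9, were scanned on another day than the HFC array of their week. The estimate against HFC was negative for 7 of 9 genes with HF5 (52.7% of probes), 7 of 9 with HF20 (43.8%), 6 of 9 with HF75 (45.9%) and 7 of 9 for the mean of the doses (48.1%). Some signs depended on the probe. In HF5 the mean difference was -0.001 for C1qc, and -0.21 and 0.10 for the 2 probes of C3ar1. In HF75 it was 0.08 and -0.27 for the 2 probes of C2. C3 counts as positive by its saturated probe, while its second probe was at -1.02 in HF5, -0.54 in HF20 and -0.76 in HF75. In HF5, 2 of the 9 genes had an unadjusted p below 0.05, against 4.72% of probes. They were Cfb at -0.84 (SE 0.39) and C5ar1 at 1.16 (SE 0.49, adjusted p = 0.925), of opposite sign. For Cfb, HF5 minus HFC was -2.77 at W12, on the dimmest array, and the estimate was -0.45 without that week. C5ar1 ran from -6.04 through -5.09 to -3.91 in HF5, from -7.28 through -6.45 to -4.20 in HF20, from -6.68 through -5.43 to -4.68 in HF75, and in HFC over the same weeks from -8.20 through -6.51 to -3.73. Of these arrays, 5 of 6 in HF5, 3 of 6 in HF20, 4 of 6 in HF75 and 3 of 6 in HFC were well above background, and HF5 W12, the highest of HF5, was not, so the C5ar1 estimates rest in part on background. For the mean of the doses the estimate was -0.53 (SE 0.40) for C1qa, -0.40 (SE 0.46) for C1qb and -0.26 (SE 0.39) for C1qc. It was -0.55 (SE 0.34) for C4b, -0.25 (SE 0.30) for C2, -0.61 (SE 0.32) for Cfb and -0.77 (SE 0.42) for the second C3 probe. C3ar1 was at -0.48 (SE 0.45) and C5ar1 at 0.74 (SE 0.40). All adjusted p values of the mean of the doses were 0.9999.

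Many of these estimates rested on W12. Of the 9 genes only 1 was above HFC there in HF5, 0 in HF20 and 2 in HF75. C1qc, C3ar1 and C5ar1 had their highest HFC level at W12. C2 and Cfb did not stand high there, at 4.78 and 4.46 against HFC medians of 4.88 and 4.33 over W3 to W18. They were at the lowest level of the diet in HF5 W12 (3.04 and 1.69) and HF20 W12 (2.77 and 1.89). C1qa was 3.59 lower in HF20 W12 than in HFC W12, at 0.23 against 3.82, and the macrophage score was 3.51 lower. At W15, where HFC was low, 9, 9 and 8 of the 9 genes were above HFC in HF5, HF20 and HF75, and the macrophage score was above HFC by 1.36, 1.54 and 1.53. At W18 the counts were 0, 1 and 0. These counts too rest on 1 array per diet and week, and no share of all probes was taken for them. With W12 left out, and the saturated C3 probe aside, positive estimates went from 1 to 5 of 8 in HF5, from 1 to 6 of 8 in HF20 and from 1 to 3 of 8 for the mean of the doses. The last was then at -0.13 for C1qa, 0.02 for C1qb, 0.17 for C1qc, -0.07 for C2, -0.36 for Cfb and -0.48 for the second C3 probe. With only the 2 dimmest arrays, HF5 W12 and HF75 W3, left out, the median of the 8 mean-of-doses estimates was -0.23 in place of -0.44, and Cfb in HF5 was at -0.55. HFC W12 enters all of these comparisons.

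**Figure D4:**
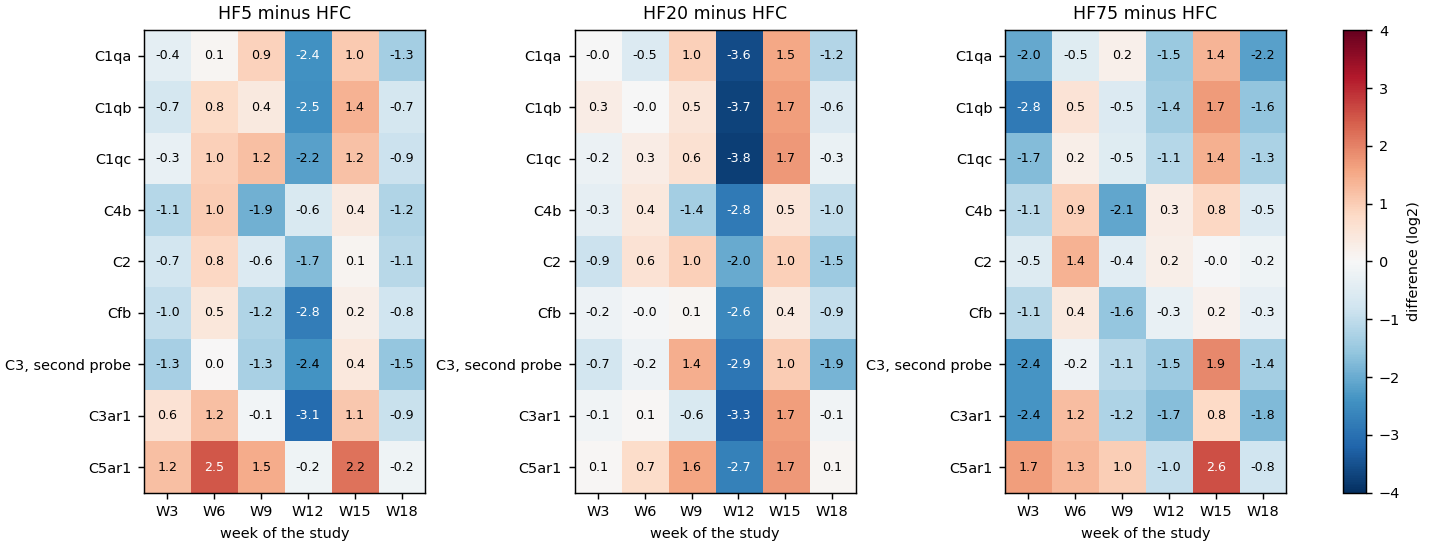
Difference (log2) of each KAL-1 dose from the HFC array of the same week, 1 panel per dose, with genes in rows and weeks in columns. At W12 most cells are below 0, down to -3.76 for C1qc in HF20, and at W15 most are above 0.

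Across arrays the 9 genes were far from independent. Of 72 relations tested (36 between members and 36 of a member with a marker score), 25 of 36 member pairs and 8 of 9 relations with the macrophage score passed an adjusted permutation p of 0.05. No share of all probes was taken for these counts, nor for those of the other scores below. As a scale for r, each gene was set against 29398 probes. The median r ran from -0.04 (Cfb) to 0.038 (C5ar1). Only a small upper tail of probes exceeded an r of 0.437 for C2 (the lowest such limit), 0.564 for C1qa and 0.601 for the saturated C3 probe (the highest). The closest member pair was C1qa and C1qb (r = 0.964, rho = 0.938, 37 arrays), with an adjusted permutation p of 5.54e-05. Its unadjusted permutation p of 1e-05 is the smallest that 100000 resamples can give. Without the 2 arrays farthest from the median of C1qa, r of this pair was 0.95. Between the residuals after removal of time point and diet means it was 0.95. C1qa with C1qc (r = 0.910), C1qb with C1qc (r = 0.904) and C1qb with C3ar1 (r = 0.877) had the same adjusted permutation p. C2 and Cfb formed a pair of their own (r = 0.861, rho = 0.75), which held at 0.777 without the 2 farthest arrays and at 0.847 between residuals. Within each diet it ran from 0.758 in HF75 to 0.965 in HF5. C4b and Cfb were at r = 0.745, which fell to 0.368 within HF5.
With the macrophage score the C1q chains had r = 0.927 (C1qa), 0.914 (C1qb) and 0.902 (C1qc), followed by C3ar1 at 0.841. Cfb was at 0.619, C5ar1 at 0.585, C4b at 0.581, C2 at 0.536 and the saturated C3 probe at 0.124. The fibroblast score was related to 6 of 9 genes, most closely to C1qa (r = 0.603, rho = 0.535, adjusted permutation p = 0.000252). The mesothelial score was related to 4 of 9, C2 (r = 0.582, rho = 0.583, adjusted permutation p = 0.00049), Cfb (r = 0.454), C1qc (r = 0.426) and C3ar1 (r = 0.39). As a description, the second C3 probe was at r = 0.763 with C1qa, 0.758 with Cfb, 0.664 with the macrophage score and 0.594 with the mesothelial score.

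**Figure D5:**
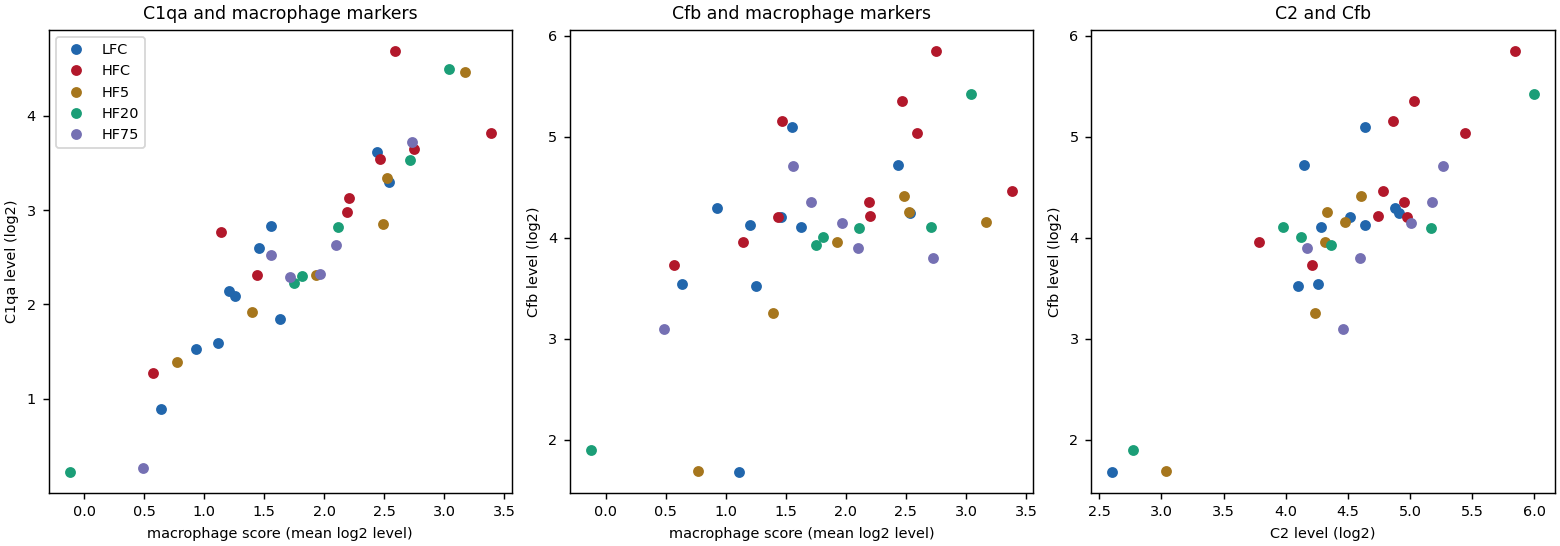
Levels (log2 signal relative to the array's 75th percentile) of C1qa and Cfb against the macrophage score, and of Cfb against C2, 1 point per array, coloured by diet. C1qa follows the score closely (r = 0.927), and in the C2 and Cfb panel LFC D10, HF5 W12 and HF20 W12 lie low on both axes.

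Among 29398 probes, the genes whose levels were most like C1qa over 37 arrays were C1qb (r = 0.964), Csf1r (r = 0.958), the growth factor receptor of macrophages, and Folr2 (r = 0.932), a folate receptor of resident macrophages. Those most like C1qb were C1qa, Csf1r (r = 0.945) and Cd68 (r = 0.936), a lysosomal protein of macrophages, over up to 38 arrays. For C3ar1 they were Csf1r (r = 0.879), C1qb (r = 0.877) and Folr2 (r = 0.874), and for C1qc they were Tbxas1 (r = 0.919), Lilrb3 (r = 0.91) and C1qa. C2 was most like Cfb, Il18 (r = 0.848) and Smo (r = 0.815). Cfb was most like the second C2 probe (r = 0.874), Bst1 (r = 0.781) and Loxl1 (r = 0.778). C4b had Ctsa (r = 0.786), Slc37a2 (r = 0.782) and Ppp1r14b (r = 0.749), and C5ar1 had Abca9 (r = 0.805), Cbr2 (r = 0.78) and Gm5598 (r = 0.746). The saturated C3 probe was most like probes of Gm8012, Gm13213 and Gm7806, which were themselves saturated on 24, 30 and 24 of the arrays. Csf1r and Cd68 belong to the macrophage score.

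Of 40 other complement genes on a list of the cascade, 34 were tested for HFC minus LFC over the 10 time points. The estimate was positive for 23, against 50.7% of probes, and negative for 11, with a median of 0.51. An unadjusted p below 0.05 was found for 9, against 9.05% of probes, and 7 of these were positive. None passed the adjusted threshold. The highest estimates were those of C4bp (2.65, SE 1.54), a fluid-phase inhibitor that binds C4, Fcna (1.28, SE 0.60), a lectin of the third pathway of activation, and Cfi (1.12, SE 1.03), the protease that inactivates C3b and C4b. The lowest were those of Cd93 (-0.79, SE 0.40), Cd59a (-0.77, SE 0.29) and Cd46 (-0.73, SE 0.28), the last 2 being membrane-bound inhibitors of the cascade. The C1 proteases that act with C1q were named after their values were seen. C1s1 was at 0.98 (SE 0.26), C1rb at 1.06 (SE 0.38) and C1ra at 0.50 (SE 0.24), and their inhibitor Serping1 was at 0.86 (SE 0.23), each with an adjusted p of 0.547.
From D6 to W0 the estimates of 24 of 36 tested genes were positive, against 46.5% of probes. C4bp was highest at 6.40, followed by Cd55b at 2.52 (adjusted p = 0.173) and Cfi at 2.37, and Cd93 was lowest at -1.74, followed by Cfd at -1.15 and Cr2 at -0.94. The epididymis and brown fat scores given above differed in the same D6 and D10 pairs, and their part in these values was not tested. In the mean of the doses against HFC, 22 of 34 were negative, against 48.1% of probes.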

How the data were processed

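The 9 genes, the marker lists and the tests were chosen with earlier results of these data known. Per the file headers, the authors' scanner files hold intensity values from Agilent Feature Extraction 10.5.1.1 (the submitters' processing notes name version 9.1). In them the processed signal is the intensity with background subtracted within each array, not scaled between arrays. The deposited series table holds log2 ratios to LFC and was not used, and neither were values of the authors' own comparisons.

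Spots marked as outliers by the scanner software were left out, saturated spots were kept, log2 signals were reduced by the array's 75th percentile, and spots of the same probe were averaged. A probe was tested if 1 diet of the fit or more had it well above background on a share of 0.5 or more of its arrays. Array brightness, the 75th percentile of the signal, lay between 25.8 and 1983 scanner units, with 40.1% to 91.6% of spots well above background, and the number of arrays limits the precision. The two-sided tests came from limma 3.58.1 (R 4.3.3; lmFit, then eBayes). Their p-values were adjusted by Benjamini-Hochberg across every probe tested, at a threshold of 0.05. They covered 10 comparisons. Time point was a block, except in slopes within a diet, because LFC and HFC of a time point share a scan day and each time point has 1 array per diet. The KAL-1 arrays share the scan day of HFC only in part. HF20 and HF75 at W3 and W18, HF75 at W6 and all doses at W9 were scanned on another day. There the block does not remove scan day. With scan day as the block, the median of the 8 mean-of-doses estimates from unsaturated probes was -0.48. Only the model of HFC minus LFC over the 10 time points was tested on simulated data, which held no dim arrays. Separate animals behind the arrays are not stated, so the p-values measure the spread between arrays. Correlations used 100000 permutations, two-sided, adjusted over 72 relations. The probe of highest mean level stood for a gene. Other complement genes were named where their estimate was among the 3 highest or 3 lowest, and genes of like pattern as the 3 highest correlations. Dose came from title and source name, since at W15 and W18 the diet labels of HF5 and HF20, 4 arrays in all, are exchanged. All 9 symbols matched the RefSeq gene table (GRCm38.p6). The array design uses another build, so probes carry no coordinates. Alternatives were quantile normalisation, normexp with an offset of 50, a stricter filter, no block, other blocks, the dose labels, omitted time points or arrays, and covariates for brightness and macrophage score. The covariates, the omission of the dimmest arrays and that of 6 arrays in the correlations were chosen after seeing the data.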

Additional observations from a re-analysis of the deposited data

Results flagged for a closer look

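Of 108 groups of 6 to 10 values, 11 held an array far from the others, where chance gives about 1 in 20. In the LFC D10 preparation both probes of C2 (levels 2.61 and 0.58) and Cfb (1.68) lay below all other LFC arrays, the nearest being at 4.10, 1.80 and 3.52. The HFC minus LFC difference of Cfb at D10, 3.47, stood above the next one, 1.13. On the dim array HF75 W3, C1qb was at -1.30 (nearest 1.30) and C3ar1 at -5.60 (nearest -3.28). On the dimmest array, HF5 W12, C2 was at 3.04 against 4.24 for the nearest.

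C1qc was at 5.69 on HF5 W9 (nearest 3.74). At W12, HF20 minus HFC was -3.76 for C1qc (nearest -0.26) and -3.80 for the second C3ar1 probe (nearest -0.28). For the saturated C3 probe, HF5 minus HFC was 1.81 at W9 (nearest 0.39), which is a difference of clipped signals. Why these arrays lay apart was not tested.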

How the results depend on the processing

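For HFC minus LFC over the 10 time points, the 8 genes read by unsaturated probes kept positive estimates under every alternative run (7 of 7 where every array had to be well above background), with no call. C5ar1 dropped out where every array had to be well above background. Each time point left out in turn gave 0.51 to 0.98 for C1qa, 0.57 to 1.04 for C1qb and 0.37 to 0.66 for C2. The ranges were 0.37 to 0.80 for Cfb and 0.77 to 1.22 for C3ar1. The block pairs arrays of 1 time point. Without it, 30 probes passed for D6 to W0 (smallest adjusted p = 0.0319) in place of 0, none of them for the 9 genes, and no other call changed. From D6 to W0 the sign turned for C1qc (-0.037) and C4b (-0.30) without D10, with ranges of -0.04 to 0.67 and -0.30 to 0.72, and for C1qa without D14 (-0.15, range -0.15 to 0.28).

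For the mean of the doses, leaving out W12 turned C1qb to 0.022, C1qc to 0.17 and the second C3ar1 probe to 0.20, with ranges of -0.80 to 0.02, -0.60 to 0.17 and -0.56 to 0.20. With each week left out in turn, the first C3ar1 probe ranged from -0.81 to -0.04 and C4b from -0.81 to -0.30. Leaving out W9 and W12 turned C1qb to 0.0012, C1qc to 0.10, the 2 C3ar1 probes to 0.11 and 0.32. Among the other single-dose, slope and saturated-probe estimates of the 9 genes, 116 of 1028 refits had the opposite sign, and 0 passed the threshold. The relation of C4b with the adipocyte score (r = 0.413) fell to 0.268 (adjusted p = 0.179) without 6 arrays that stood apart. The study's methods name a t-test within a time point. Here an unpaired t-test was run instead over the HFC and LFC arrays of all 10 time points. It called 305 probes at an unadjusted p below 0.05 and a change of at least 2-fold, and 0 after adjustment. With 1 array per diet and time point, no difference at a single time point could be tested.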
